A study of Mus musculus with 19 samples.

Results

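The genes described here are 36 genes that mark hepatic stellate cells or encode the extracellular matrix, taken by name from a list and followed across the livers of 19 mice. Each gene was read from 1 probe set, the one with the highest mean over the 19 arrays among probe sets annotated with that symbol alone, out of 18193 genes read in this way. All 36 were on the array and 29 passed a filter on low values (over log2 4 on at least 4 arrays), among 8515 genes that did so. The livers came from male C57BL/6 mice aged 10 to 12 weeks, studied 2 h after an 85% liver resection. There were 4 livers null for both Ager and Myd88 (Ager_Myd88_null), 4 null for Myd88 (Myd88_null), 6 null for Ager (Ager_null) and 5 wild-type livers (WT). The product of Ager is RAGE, a receptor on the cell surface that binds molecules released by damaged tissue. Myd88 links Toll-like receptors and the receptor for interleukin-1 to their downstream kinases. Every liver had been resected, and none without resection was analysed here. The labels call the mice null and name no construct, promoter or cell type.

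Stellate cells lie between the hepatocytes and the sinusoidal endothelium, store vitamin A as retinyl ester, and are the pericytes of the liver sinusoid. On injury they can turn into contractile, matrix-producing myofibroblasts, with PDGF and TGF-beta as the best known signals, and they make much of the collagen laid down in liver scars. Several genes of the list are shared with other cells: endothelium makes basement membrane collagen, and hepatocytes secrete plasma fibronectin. In bulk liver, fewer cells of a type and less RNA per cell cannot be told apart.

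Arrays correlated with each other at 0.948 to 0.993 over the tested genes, and Myd88_null 4 stood apart with a median of 0.965, the next lowest median being 0.979. Myd88 averaged 3.45 ± 0.58 in Ager_Myd88_null and 3.49 ± 0.34 in Myd88_null livers, against 5.91 ± 0.38 in Ager_null and 5.55 ± 0.29 in WT livers (log2, SD). The Ager probe set stayed under log2 4 on all arrays, so it checks nothing about the Ager labels. The extraction text speaks of glomeruli, while all 13 hepatocyte markers on the array passed the filter (gene means 4.36 to 15.4) and 7 of 8 kidney and glomerulus markers did not (Podxl passed, at a mean of 4.11). The sample descriptions carry an S number of unstated meaning. S 1 to 6 holds 2 Ager_Myd88_null, 2 Myd88_null and 2 WT arrays. S 7 to 12 holds 2 Ager_Myd88_null, 1 Myd88_null and 2 WT arrays. S 13 to 20 holds 1 Myd88_null, 1 WT and all 6 Ager_null arrays, so Ager_Myd88_null and Ager_null arrays never share a range.

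Few members passed the test in any comparison, and 6 passed in at least 1: the matricellular gene Postn, the pericyte and membrane genes Gucy1a1, Kcnj8 and Crim1, the collagen gene Col1a2 and the tropomyosin gene Tpm2. Tests are limma fits over all 8515 genes with Benjamini-Hochberg adjustment, called at an adjusted p under 0.05. In Ager_Myd88_null against WT, 3 of 29 members were called (Postn, Gucy1a1 and Kcnj8, all higher), where 0.317% of all tested genes were. In Myd88_null against WT, 2 were called (Postn and Crim1, both higher), against 0.399% of all genes. In Ager_null against WT, 2 were called (Postn and Col1a2, both higher), against 1.26% of all genes. Col1a2 was over log2 4 on Ager_null arrays only, so it entered the test through the group in which it is high. With values under log2 4 set to 4, 1 member was called there. These 3 comparisons share the WT arrays. The members' median log2 change against WT was 0.25 in Ager_Myd88_null, 0.18 in Myd88_null and 0.33 in Ager_null livers, beside 0.07, 0.06 and 0.02 over all tested genes. Members above 0 numbered 26, 21 and 22 of 29 in the same order, where 64.1%, 59.2% and 52.2% of all tested genes were above 0. Groups did not overlap for 4 members in Ager_Myd88_null against WT (3.81% of all genes), 4 in Myd88_null against WT (4.52%) and 5 in Ager_null against WT (3.7%). Col1a2 is among those 5. With median centring of the arrays the median over all genes in Myd88_null against WT was -0.05, in place of 0.06.

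**Figure D1:**
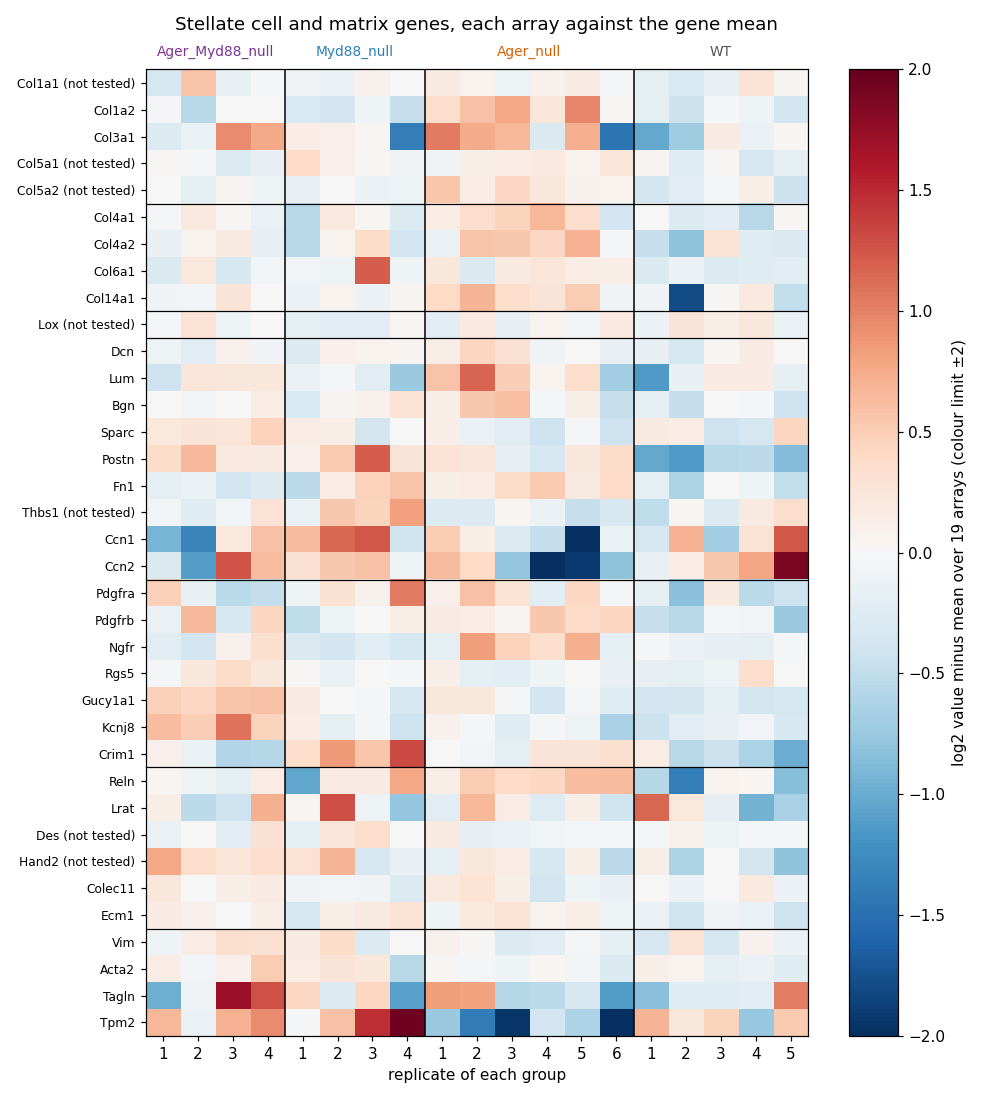
Each row is a member and each column an array, grouped by genotype, and the colour gives the log2 value minus that gene's mean over 19 arrays, capped at 2 in either direction. Rows marked as not tested stayed under the filter. The Postn row is below its mean on all 5 WT arrays, and the Tpm2 row is below its mean on all 6 Ager_null arrays.

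Postn, which encodes periostin, a matricellular protein of remodelling connective tissue, was higher in every deletion genotype than in WT. It read 8.20, 8.47, 8.03 and 8.01 in Ager_Myd88_null livers and 7.93, 8.35, 9.04 and 8.08 in Myd88_null livers (log2). In Ager_null livers its lowest value was 7.49, its median 8.06 and its highest 8.20, and the WT livers read 6.81, 6.69, 7.28, 7.31 and 6.95. No WT array reached the lowest array of any deletion genotype. Postn rose by 1.17 ± 0.21 in Ager_Myd88_null (SE, adjusted p = 0.010, 2.25-fold), by 1.34 ± 0.21 in Myd88_null (adjusted p = 0.0038, 2.54-fold) and by 0.92 ± 0.19 in Ager_null livers (adjusted p = 0.030, 1.89-fold). Averaged over both Ager backgrounds, Myd88 loss raised it by 0.80 ± 0.14 (adjusted p = 0.017), where 2 members were called, against 0.517% of all genes. Within S 1 to 6 the difference from WT was 1.58 in Ager_Myd88_null and 1.39 in Myd88_null livers. Within S 7 to 12 these differences were 0.73 and 1.74, and within S 13 to 20, where 1 WT array stands, they were 1.13 for the single Myd88_null array and 0.98 for Ager_null. With the S range as a block the Ager_null call was lost (1.11, adjusted p = 0.058), as it was without any one of WT 1, WT 2, WT 5, Ager_null 2 or Ager_null 5 (0.84 to 0.91, adjusted p 0.054 to 0.091). The Ager_Myd88_null call was lost without Ager_Myd88_null 2 (1.07, adjusted p = 0.059). Postn has a single probe set here.

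The estimated change of Postn with both genes lost was smaller than the sum of those with each lost, and the test of that difference missed the threshold. The interaction, the Myd88-loss change where Ager is absent less that where Ager is present, was -1.09 ± 0.29 for Postn (adjusted p = 0.051). It passed without WT 3 (-1.16, adjusted p = 0.038), without Ager_null 4 (-1.18, adjusted p = 0.043) and without Myd88_null 1 (-1.23, adjusted p = 0.010). With every gene read as the mean of its probe sets it also passed (-1.09, adjusted p = 0.044). Over all genes, leaving out Myd88_null 1 raised the number called in the interaction from 205 to 1739. Between Ager_Myd88_null and Ager_null livers the Postn difference was 0.25 (95% interval -0.17 to 0.67), and between Ager_Myd88_null and Myd88_null livers it was -0.17 (-0.63 to 0.29).

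**Figure D2:**
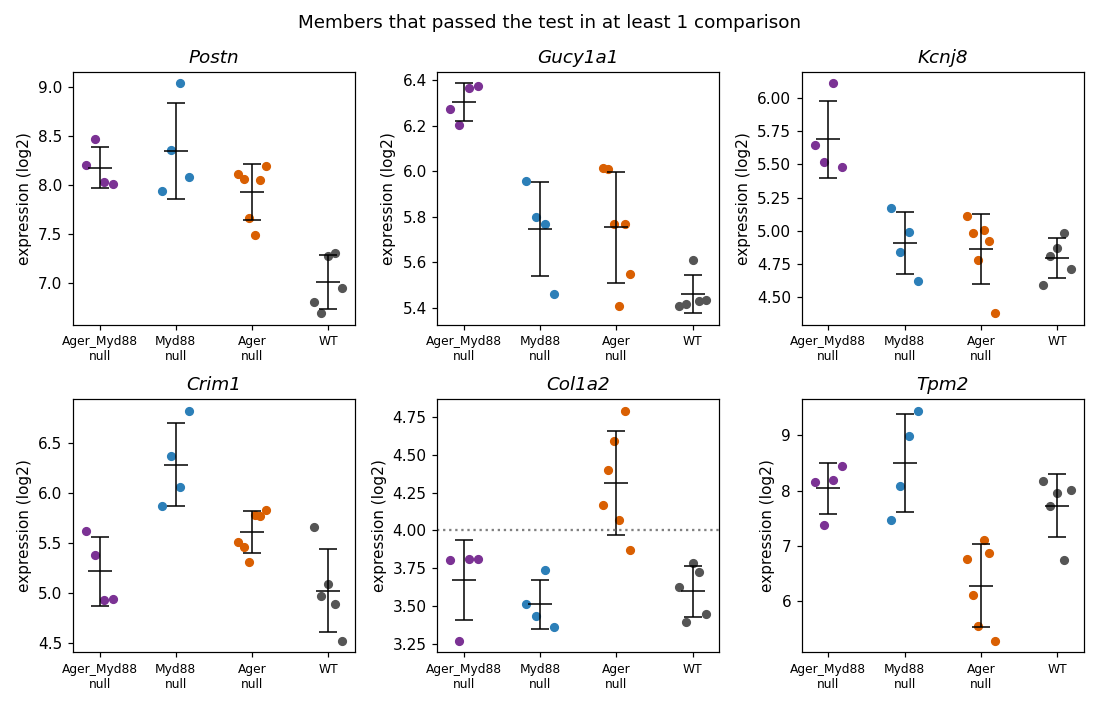
Each panel is a member that passed the test in at least 1 comparison, with 1 point per array, log2 expression on the vertical axis and genotype on the horizontal axis. Postn points of the 3 deletion genotypes all lie above the WT points, Gucy1a1 and Kcnj8 are highest in Ager_Myd88_null, Crim1 in Myd88_null and Col1a2 in Ager_null, and Tpm2 is lowest in Ager_null.

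Sequences upstream of the called members are shown to set their letters beside these values. RefSeq's table of promoters (GRCm38.p6) matched 25 of the 36 members, and among the called ones Postn, Kcnj8, Col1a2 and Crim1. Ccn1 is added because its level varied with that of Ccn2. Each window is the 250 bases before a listed start, 5′ to 3′ on the gene's strand. They lie at chr3:54360857-54361106 (plus strand) for the later of 2 starts listed for Postn, at chr6:142571615-142571864 (minus) for Kcnj8 and at chr6:4505368-4505617 (plus) for Col1a2. That of Crim1 lies at chr17:78199998-78200247 (plus) and that of Ccn1 at chr3:145649986-145650235 (minus). Capitals mark TATAAA on the gene's strand, CCAAT on either strand, and GGAATG on either strand (CATTCC on the other), the core bound by TEAD factors. No marked motif overlaps another.
Postn: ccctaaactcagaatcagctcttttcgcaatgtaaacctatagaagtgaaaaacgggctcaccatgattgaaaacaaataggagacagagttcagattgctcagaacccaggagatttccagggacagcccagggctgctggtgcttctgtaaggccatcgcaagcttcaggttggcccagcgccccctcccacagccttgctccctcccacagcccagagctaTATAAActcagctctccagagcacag
Kcnj8: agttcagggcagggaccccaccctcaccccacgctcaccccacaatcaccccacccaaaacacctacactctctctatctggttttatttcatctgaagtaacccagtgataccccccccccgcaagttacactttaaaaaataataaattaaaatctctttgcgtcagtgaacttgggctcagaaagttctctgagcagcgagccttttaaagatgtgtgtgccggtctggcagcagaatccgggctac
Col1a2: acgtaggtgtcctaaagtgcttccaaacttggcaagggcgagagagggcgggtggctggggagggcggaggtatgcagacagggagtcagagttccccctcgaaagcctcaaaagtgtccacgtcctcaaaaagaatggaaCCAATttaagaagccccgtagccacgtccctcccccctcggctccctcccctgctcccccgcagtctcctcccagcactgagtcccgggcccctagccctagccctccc
Crim1: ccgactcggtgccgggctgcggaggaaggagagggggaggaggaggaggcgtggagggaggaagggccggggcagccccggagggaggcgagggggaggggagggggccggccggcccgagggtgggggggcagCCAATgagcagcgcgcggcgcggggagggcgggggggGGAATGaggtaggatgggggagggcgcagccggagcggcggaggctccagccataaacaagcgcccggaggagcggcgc
Ccn1: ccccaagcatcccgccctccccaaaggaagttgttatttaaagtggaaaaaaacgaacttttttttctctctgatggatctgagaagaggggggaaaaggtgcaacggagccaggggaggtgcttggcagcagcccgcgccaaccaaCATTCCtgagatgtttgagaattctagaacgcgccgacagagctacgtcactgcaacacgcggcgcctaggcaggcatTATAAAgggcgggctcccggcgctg
TATAAA begins 26 bases before the later Postn start and 25 bases before that of Ccn1. CCAAT begins 109 bases before the Col1a2 start and 116 before that of Crim1, where GGAATG begins 79 bases before the start, and CATTCC begins 103 bases before that of Ccn1. None of these letters occurs in the Kcnj8 window. TATAAA was in 5 of the 27 windows of members and in 7.59% of 32851 windows of all genes, CCAAT in 8 and 33.8%, and GGAATG in 5 and 12.6%. TGANTCA, the AP-1 motif (either strand), was in 2 windows of members (those of Col6a1 and Ecm1) and 6.75% of all, the NF-kB motif in 2 (Des and Vim) and 3.9%, and the CArG box of SRF in 0 and 1.47%. A match is a run of letters and not a measured binding site.

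Gucy1a1 and Kcnj8, both genes of the pericyte's contractile control, were highest when both genes were lost. Gucy1a1 encodes a subunit of soluble guanylate cyclase, the receptor for nitric oxide. It read 6.27, 6.20, 6.37 and 6.37 in Ager_Myd88_null livers and 5.96, 5.80, 5.77 and 5.46 in Myd88_null livers. In Ager_null livers it ran between 5.41 and 6.02 with a median of 5.77, and WT livers read 5.41, 5.42, 5.61, 5.43 and 5.44. All 4 Ager_Myd88_null arrays were above every other array. Gucy1a1 rose by 0.84 ± 0.13 against WT (adjusted p = 0.0020), a call kept in all 25 settings run (with the mean of its probe sets the gene did not pass the filter). It rose by 0.55 ± 0.12 against Ager_null (adjusted p = 0.031), and by 0.42 ± 0.09 with Myd88 loss averaged over both Ager backgrounds (adjusted p = 0.039). Against Myd88_null it differed by 0.56 (95% interval 0.28 to 0.84), with an adjusted p of 0.104. In the lowest and middle S ranges the difference from WT was 0.82 and 0.85. The call against Ager_null was lost in 8 of 25 settings, 6 of them with a single array left out (any one of Ager_null 3, 4 or 6 or Ager_Myd88_null 1, 3 or 4; 0.48 to 0.56, adjusted p 0.054 to 0.13). Blocking on the S range gave 0.35 (adjusted p = 0.45). The call averaged over both backgrounds was lost in 15 of 25. Among them were 11 that left out a single array (any one of WT 1, 2 or 4, Ager_null 3, Myd88_null 1, 2 or 3, or any Ager_Myd88_null array; 0.38 to 0.43, adjusted p 0.052 to 0.087), quantile normalization (0.33, adjusted p = 0.14), median centring (0.33, adjusted p = 0.090) and the S range block (0.32, adjusted p = 0.13). The other 2 probe sets of Gucy1a1 stayed under log2 4 on all arrays, and on them Ager_Myd88_null differed from WT by 0.02 and 0.16.

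Kcnj8 encodes Kir6.1, the pore of the pericyte and smooth muscle KATP channel. It read 5.64, 5.52, 6.11 and 5.48 in Ager_Myd88_null livers and 5.17, 4.84, 4.99 and 4.62 in Myd88_null livers. Its range in Ager_null livers was 4.38 to 5.11 with a median of 4.95, and WT livers read 4.59, 4.81, 4.87, 4.98 and 4.71. Again the 4 Ager_Myd88_null arrays lay above all others, while the other 3 genotypes overlapped. Kcnj8 rose by 0.89 ± 0.16 against WT (adjusted p = 0.010, 1.86-fold) and by 0.82 ± 0.15 against Ager_null (adjusted p = 0.014). Against Myd88_null it differed by 0.78 (95% interval 0.43 to 1.13, adjusted p = 0.067). In the lowest and middle S ranges it exceeded WT by 0.88 and 0.87. Without Ager_Myd88_null 3 the changes were 0.75 against WT (adjusted p = 0.064) and 0.68 against Ager_null (adjusted p = 0.089). Blocking on the S range gave 0.57 against Ager_null (adjusted p = 0.28). The interaction for Kcnj8 was 0.71 ± 0.22 and missed the threshold (adjusted p = 0.069). It passed without Myd88_null 1 (0.80, adjusted p = 0.022) and with quantile normalization (0.88, adjusted p = 0.049). Leaving out Myd88_null 1 raised the genes called in the interaction from 205 to 1739.

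Crim1, a membrane protein that binds BMP growth factors, was highest in Myd88_null livers. It read 5.62, 5.38, 4.93 and 4.94 in Ager_Myd88_null livers and 5.87, 6.37, 6.07 and 6.83 in Myd88_null livers. Ager_null livers ran from 5.31 to 5.83 around a median of 5.64, and WT livers read 5.66, 4.96, 5.09, 4.89 and 4.52. The Myd88_null arrays were above every other array. Crim1 rose by 1.26 ± 0.22 in Myd88_null against WT (adjusted p = 0.015, 2.40-fold), and the difference was 0.81, 1.08 and 2.31 in the lowest, middle and highest S range. The middle range sets 1 Myd88_null array against 2 of WT, and the highest sets Myd88_null 4 against 1 WT array. The interaction of Crim1 was -1.66 ± 0.30 (adjusted p = 0.026), the only member called there, against 2.41% of all genes. So its change with Myd88 loss was 1.26 where Ager was present and -0.40 (95% interval -0.84 to 0.05) where Ager was absent. Without Myd88_null 2 or Myd88_null 4 the change against WT lost its call (1.08 to 1.23, adjusted p 0.066 to 0.083), as it did with quantile normalization (1.10, adjusted p = 0.051). The interaction lost it without any one of Myd88_null 2, Myd88_null 3, Myd88_null 4, Ager_Myd88_null 3 or Ager_Myd88_null 4 (-1.73 to -1.48, adjusted p 0.052 to 0.081), and when the S range was blocked (-1.56, adjusted p = 0.14). A second probe set of Crim1, over log2 4 on all 19 arrays, gave 0.06 in Myd88_null against WT and -0.24 in Ager_Myd88_null against WT, so the probe sets disagree. Crim1 lies on chromosome 17, as does Ager.

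The fibrillar collagens, the rods of scar matrix, were mostly at low signal at this time. Of the 5, Col1a1, Col5a1 and Col5a2 stayed under log2 4 on all arrays (highest values 3.27, 3.68 and 3.72). Col1a2, the second chain of type I collagen, read 3.80, 3.27, 3.81 and 3.81 in Ager_Myd88_null livers and 3.51, 3.43, 3.74 and 3.36 in Myd88_null livers. Its range in Ager_null livers was 3.87 to 4.79 with a median of 4.29, and WT livers read 3.63, 3.39, 3.79, 3.73 and 3.45. The 6 Ager_null arrays were above all 13 others, and 5 of them were the only arrays over log2 4, so Col1a2 entered the test through the group in which it is high. It rose by 0.72 ± 0.15 in Ager_null against WT (adjusted p = 0.036) and fell by 0.64 ± 0.16 in Ager_Myd88_null against Ager_null (adjusted p = 0.048). A floor at log2 4 left a difference from WT of 0.34, which was not called. Within S 13 to 20 it was 0.87, against 1 WT array. The call against WT was lost with the S range as a block (0.89, adjusted p = 0.058) and without any one of WT 1, WT 2, WT 5, Ager_null 2, Ager_null 3 or Ager_null 5 (0.62 to 0.73, adjusted p 0.060 to 0.11). The call of Ager_Myd88_null against Ager_null was lost in 19 of 25 settings, among them 16 that left out a single array (-0.69 to -0.51, adjusted p 0.051 to 0.14). The other 2 Col1a2 probe sets were under log2 4 on all arrays.

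Col3a1, the type III collagen that forms fine reticular fibres, was readable on every array and differed in no comparison beyond the spread. It read 6.94, 7.08, 8.16 and 7.97 in Ager_Myd88_null livers, and 7.37, 7.32, 7.24 and 5.84 in Myd88_null livers. In Ager_null livers it ran from 5.76 to 8.26 with a median of 7.91, and in WT livers from 6.19 to 7.38. The groups overlapped, and the differences from WT were 0.66, 0.06 and 0.57 in Ager_Myd88_null, Myd88_null and Ager_null livers, with intervals as wide as -0.30 to 1.62.

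The other collagens had higher means in every deletion genotype than in WT livers, and 0 of these 4 were called by limma in any of the 7 comparisons. Their median change against WT was 0.25 in Ager_Myd88_null, 0.29 in Myd88_null and 0.56 in Ager_null livers. At an unadjusted p under 0.05 there were 3 in Ager_null against WT, 1 in Myd88_null against WT and 1 in the interaction, where 21.6%, 19.6% and 27.2% of all tested genes were. Col4a1 and Col4a2, the paired chains of basement membrane collagen, differed between Ager_null and WT by 0.47 ± 0.17 (adjusted p = 0.13) and 0.65 ± 0.20 (adjusted p = 0.084). Col14a1, a collagen that decorates fibrils, differed by 0.78 ± 0.25 (adjusted p = 0.10) and Col6a1, of beaded microfibrils, by 0.33 ± 0.19 (adjusted p = 0.33). Col4a2 passed when WT 3 was left out (0.80, adjusted p = 0.042). Col4a1 averaged 8.61 ± 0.14 in Ager_Myd88_null, 8.45 ± 0.34 in Myd88_null, 8.86 ± 0.36 in Ager_null and 8.39 ± 0.23 in WT livers (SD). Col4a2 averaged 5.94 ± 0.17, 5.83 ± 0.42, 6.30 ± 0.34 and 5.65 ± 0.39 in the same order. Within S 13 to 20 the Ager_null livers exceeded the WT array by 0.24 for Col4a1 and 0.63 for Col4a2. Col6a1 was over log2 4 on only 6 arrays, and a single array, Myd88_null 3 at 5.07, stood over the rest of its group. The RefSeq starts of Col4a1 and Col4a2 lie 21 bases apart on opposite strands.

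Among the proteoglycans and glycoproteins, Dcn, Bgn and Sparc were at high levels on all arrays. Dcn (decorin, a proteoglycan that binds collagen fibrils and TGF-beta) stayed between 11.07 and 11.86 on all 19 arrays. Bgn (biglycan, its close relative) ran from 9.06 to 10.14 and Sparc (osteonectin, a matrix protein that binds collagen) from 8.98 to 9.85. None of the 3 was called, and the largest difference between 2 genotypes among them was 0.47 ± 0.16 for Sparc in Ager_Myd88_null against Ager_null (adjusted p = 0.11). Lum (lumican, a proteoglycan of collagen fibrils) spread more, from 4.37 to 6.67, and its Ager_null against WT difference was 0.55 ± 0.28 (adjusted p = 0.25).

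Fn1, which encodes fibronectin, averaged 11.97 ± 0.11 in Ager_Myd88_null, 12.38 ± 0.49 in Myd88_null, 12.49 ± 0.16 in Ager_null and 11.93 ± 0.27 in WT livers. The mean of each single loss stood over WT and that of the loss of both beside it, and no test passed. The changes against WT were 0.03 (95% interval -0.35 to 0.42), 0.44 (0.06 to 0.83, adjusted p = 0.20) and 0.56 (0.21 to 0.91, adjusted p = 0.080), and the interaction was -0.97 ± 0.26 (adjusted p = 0.051). All 6 Ager_null arrays lay above all WT arrays for Fn1. The calls of Fn1 depend on the setting. With the mean of its probe sets, Myd88_null against WT was 0.91 (adjusted p = 0.045) and the interaction -1.41 (adjusted p = 0.031). The interaction also passed with quantile normalization (-1.01, adjusted p = 0.0499), without WT 3 (-1.05, adjusted p = 0.035) and without Ager_null 1 (-1.01, adjusted p = 0.047). Without Myd88_null 1 the interaction was -1.20 (adjusted p = 0.0032), and the changes in Myd88_null and Ager_null against WT were 0.67 (adjusted p = 0.013) and 0.56 (adjusted p = 0.026). Leaving out that array raised the genes called in the interaction from 205 to 1739, and the members from 1 to 6. It raised the genes called from 34 to 987 in Myd88_null against WT and from 107 to 403 in Ager_null against WT. Thbs1, which encodes thrombospondin 1, an activator of latent TGF-beta, never passed log2 4 (highest 3.80), and neither did Lox, the collagen crosslinking enzyme (highest 2.56).

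Ccn1 and Ccn2, matricellular targets of YAP and SRF that are induced within hours by stretch and growth factors, varied widely between livers of one genotype. Ccn2 (connective tissue growth factor) ran from 7.27 to 9.63 with a median of 8.54 in Ager_Myd88_null livers and read 8.68, 8.92, 8.96 and 8.27 in Myd88_null livers. In Ager_null livers its lowest value was 5.84, its median 7.58 and its highest 9.01, and WT livers read 8.23, 8.53, 8.92, 9.16 and 10.25. The Ager_null against WT difference was -1.48 ± 0.53 (95% interval -2.58 to -0.37, adjusted p = 0.13), with overlapping groups. Ccn1 ranged from 5.03 to 8.43 over all arrays, with group means of 6.82 ± 0.91, 7.84 ± 0.75, 6.78 ± 0.92 and 7.42 ± 0.78 in Ager_Myd88_null, Myd88_null, Ager_null and WT livers, and it was called in no comparison.

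Deviations of Ccn1 and Ccn2 from their group means ran together over the 19 livers (Pearson r = 0.72, p = 0.0015, adjusted p = 0.00735; Spearman rho = 0.84, p = 7e-05, adjusted p = 0.00035; 100000 permutations within groups). The adjustment covers the 5 member pairs examined. Without the arrays farthest from the median of Ccn1, Ager_null 5 and Myd88_null 4, r was 0.72. Taken by S range, r was 0.78 over the 6 arrays of the lowest, 0.65 over the 5 of the middle and 0.74 over the 8 of the highest. For Col4a1 and Col4a2 r was 0.53 (p = 0.048, adjusted p = 0.080) and rho 0.53 (p = 0.049), and r was 0.36 without Ager_null 6 and Myd88_null 1, so that relation rests in part on those arrays. By S range, r for Col4a1 and Col4a2 was 0.81, 0.68 and 0.66 in the lowest, middle and highest. Dcn and Lum, neighbouring genes on chromosome 10, gave r = 0.56 (p = 0.035, adjusted p = 0.080) and rho = 0.60 (p = 0.021), with r = -0.13 within S 1 to 6, 0.53 within S 7 to 12 and 0.81 within S 13 to 20. Acta2 and Tagln gave r = 0.35 (p = 0.19) and rho = 0.24 (p = 0.38), and Pdgfra and Pdgfrb gave r = 0.15 (p = 0.61) and rho = 0.16 (p = 0.57), by the same permutation test.

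**Figure D3:**
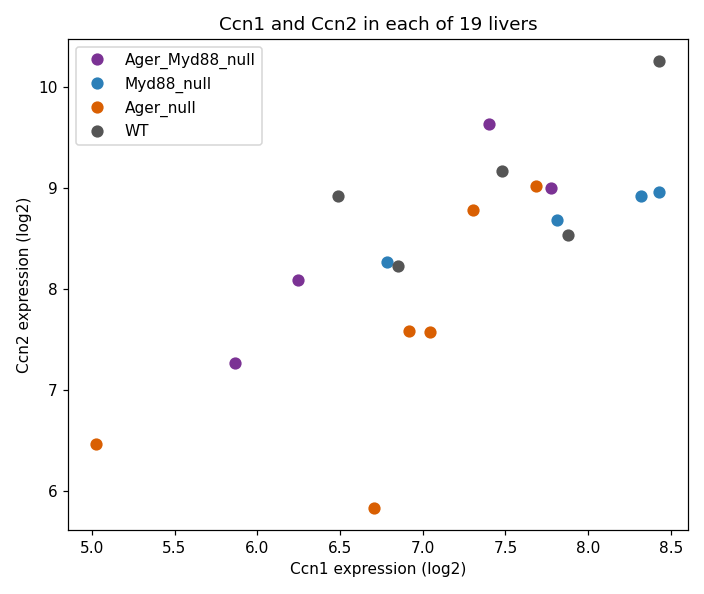
Each point is a liver, with Ccn1 on the horizontal and Ccn2 on the vertical axis (both log2 expression) and the colour giving the genotype. Livers with low Ccn1 tend to have low Ccn2 within each genotype, and Ager_null 5 has the lowest Ccn1 value, 5.03.

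Of the other receptors and pericyte genes, Pdgfrb, the PDGF receptor that marks pericytes, was at 6.19 ± 0.46 in Ager_Myd88_null, 5.92 ± 0.27 in Myd88_null, 6.32 ± 0.20 in Ager_null and 5.67 ± 0.31 in WT livers. Every Ager_null array lay above every WT array, and the difference of 0.65 ± 0.18 missed the threshold (adjusted p = 0.067), passing without WT 3 (0.74, adjusted p = 0.046) or Myd88_null 1 (adjusted p = 0.042). Pdgfra, the receptor shared with other fibroblasts, was at 4.66 ± 0.46, 5.16 ± 0.50, 5.02 ± 0.29 and 4.46 ± 0.38 in the same order, with an interaction of -1.06 ± 0.35 (adjusted p = 0.083). Its interaction passed without WT 3 (-1.19, adjusted p = 0.0499) or Myd88_null 1 (-1.20, adjusted p = 0.029). Leaving out Myd88_null 1 raised the calls over all genes, to 403 in Ager_null against WT and 1739 in the interaction. Ngfr, the p75 neurotrophin receptor of stellate cells, was over log2 4 on 5 arrays only, 1 of Ager_Myd88_null and 4 of Ager_null. Rgs5, a brake on G protein signalling in pericytes, stayed between 9.69 and 10.29 on all arrays. As a description, the mean deviation from the gene mean over all 7 receptor and pericyte members (these 4 with the called Gucy1a1, Kcnj8 and Crim1) had a median of 0.15 in Ager_Myd88_null, 0.05 in Myd88_null, 0.07 in Ager_null and -0.22 in WT livers. The WT arrays (-0.41 to -0.13) all lay below the lowest other array (-0.07). As the score includes members already called higher than WT on these arrays, this partly restates those calls. A like pattern was seen outside this role. Over 13 tested matrix receptor genes outside the members, WT arrays (-0.30 to -0.09) also lay below the lowest other array (-0.04). Those genes include Itga9, which entered the test through the Myd88-deleted genotypes, in which it is high and called. The separation was not tested without Itga9.

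**Figure D4:**
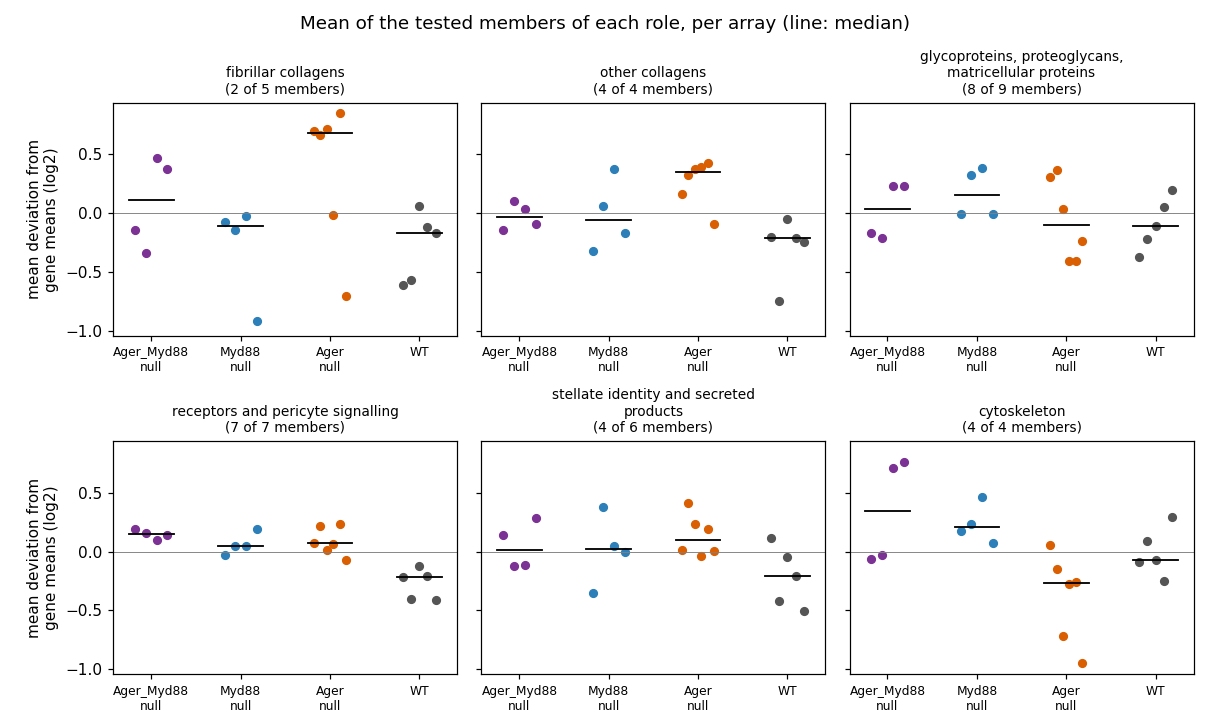
Each panel is a role, each point an array, and the vertical axis the mean over the tested members of that role of the log2 value minus the gene's mean over 19 arrays, with genotype on the horizontal axis and a line at the median. For receptors and pericyte genes, which include the called Gucy1a1, Kcnj8 and Crim1, the WT points lie below all others. For the cytoskeleton the Ager_null median is the lowest, at -0.27. The score includes Tpm2, which changed by -1.44 in Ager_null against WT, where the median change of the 4 members was -0.04.

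Genes of stellate identity gave no call in limma, with 2 of 4 tested at an unadjusted p under 0.05 in Ager_null against WT and 1 each in Ager_Myd88_null against WT, Myd88_null against WT and the interaction. The shares of all tested genes at that level were 21.6%, 8.57%, 19.6% and 27.2% in the same order. Lrat, which makes the retinyl esters stored in stellate cells, averaged 6.97 ± 0.56 in Ager_Myd88_null, 7.11 ± 0.86 in Myd88_null, 7.01 ± 0.39 in Ager_null and 6.92 ± 0.82 in WT livers, so genotype means lay closer together than livers of one genotype. Reln (reelin, a secreted glycoprotein made in the liver by stellate cells) was at 9.50 ± 0.14, 9.53 ± 0.76, 9.96 ± 0.19 and 8.98 ± 0.62 in the same order. All Ager_null arrays were above all WT arrays for Reln, by 0.99 ± 0.27 on average (adjusted p = 0.067). That difference passed without WT 3 (1.14, adjusted p = 0.042), Myd88_null 1 (adjusted p = 0.026) or Myd88_null 4 (adjusted p = 0.046). Leaving out Myd88_null 1 raised the genes called in that comparison from 107 to 403. Ecm1, a matrix protein that holds TGF-beta latent, differed from WT by 0.33 ± 0.13 in Ager_Myd88_null (adjusted p = 0.43), 0.28 ± 0.13 in Myd88_null (adjusted p = 0.23) and 0.31 ± 0.11 in Ager_null livers (adjusted p = 0.13). Colec11, a collectin of innate immunity, stayed between 10.65 and 11.30 on all arrays. Des (desmin, the classic rodent stellate marker) and Hand2, a transcription factor of stellate cells, stayed under log2 4 on all arrays, with highest values of 3.73 and 3.87.

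Among the cytoskeletal genes, Tpm2 had the largest estimate of any tested member in the 7 comparisons. It encodes beta-tropomyosin, an actin filament protein of contractile cells. Tpm2 read 8.16, 7.38, 8.19 and 8.45 in Ager_Myd88_null and 7.47, 8.09, 8.98 and 9.45 in Myd88_null livers. Its range in Ager_null livers was 5.29 to 7.11 with a median of 6.44, and WT livers read 8.18, 7.73, 7.95, 6.75 and 8.02. The Ager_Myd88_null arrays all lay above the Ager_null arrays, while 1 WT array fell inside the Ager_null range. Tpm2 rose by 1.76 ± 0.41 in Ager_Myd88_null against Ager_null (adjusted p = 0.039, 3.39-fold), 1 of 4 members called there with Kcnj8, Gucy1a1 and Col1a2, against 2.44% of all genes. Those groups did not overlap for 6 members and 8.39% of all genes. Both member counts include Col1a2, which entered the test through Ager_null arrays only. The Ager_null against WT difference was -1.44 ± 0.38 (adjusted p = 0.063) and -1.73 within S 13 to 20, where 1 WT array stands. It passed with the mean of its probe sets (-1.03, adjusted p = 0.038), and without Myd88_null 1 (adjusted p = 0.034) or Myd88_null 4 (adjusted p = 0.046). Leaving out Myd88_null 1 raised the genes called in that comparison from 107 to 403. With Myd88 loss averaged over both backgrounds Tpm2 changed by 1.27 and missed the threshold (adjusted p = 0.062). That change passed with the mean of probe sets (0.91, adjusted p = 0.026) and the S range block (1.65, adjusted p = 0.022). It also passed without Ager_null 4 (1.35, adjusted p = 0.0496) or Myd88_null 1 (1.44, adjusted p = 0.026). For averaged Myd88 loss, leaving out Myd88_null 1 raised the genes called from 44 to 73. The call against Ager_null was lost with the S range as a block (2.54, adjusted p = 0.057), with no filter on low values, and without any one of Ager_null 2, 3 or 6 or Ager_Myd88_null 1, 3 or 4 (1.56 to 1.73, adjusted p 0.053 to 0.14). A second Tpm2 probe set over log2 4 on all arrays gave 2.33 in Ager_Myd88_null against Ager_null and -1.83 in Ager_null against WT.

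The other cytoskeletal members did not follow Tpm2 past the threshold. Acta2, the smooth muscle actin that marks activated stellate cells, averaged 4.67 ± 0.24 in Ager_Myd88_null, 4.51 ± 0.39 in Myd88_null, 4.43 ± 0.12 in Ager_null and 4.42 ± 0.16 in WT livers, close to the filter. Tagln (transgelin, an SRF target of contractile cells) ranged from 4.39 to 7.23, and its differences from WT had intervals as wide as -0.53 to 1.69. Vim (vimentin, an intermediate filament of mesenchymal cells) stayed between 8.87 and 9.57.

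**Figure D5:**
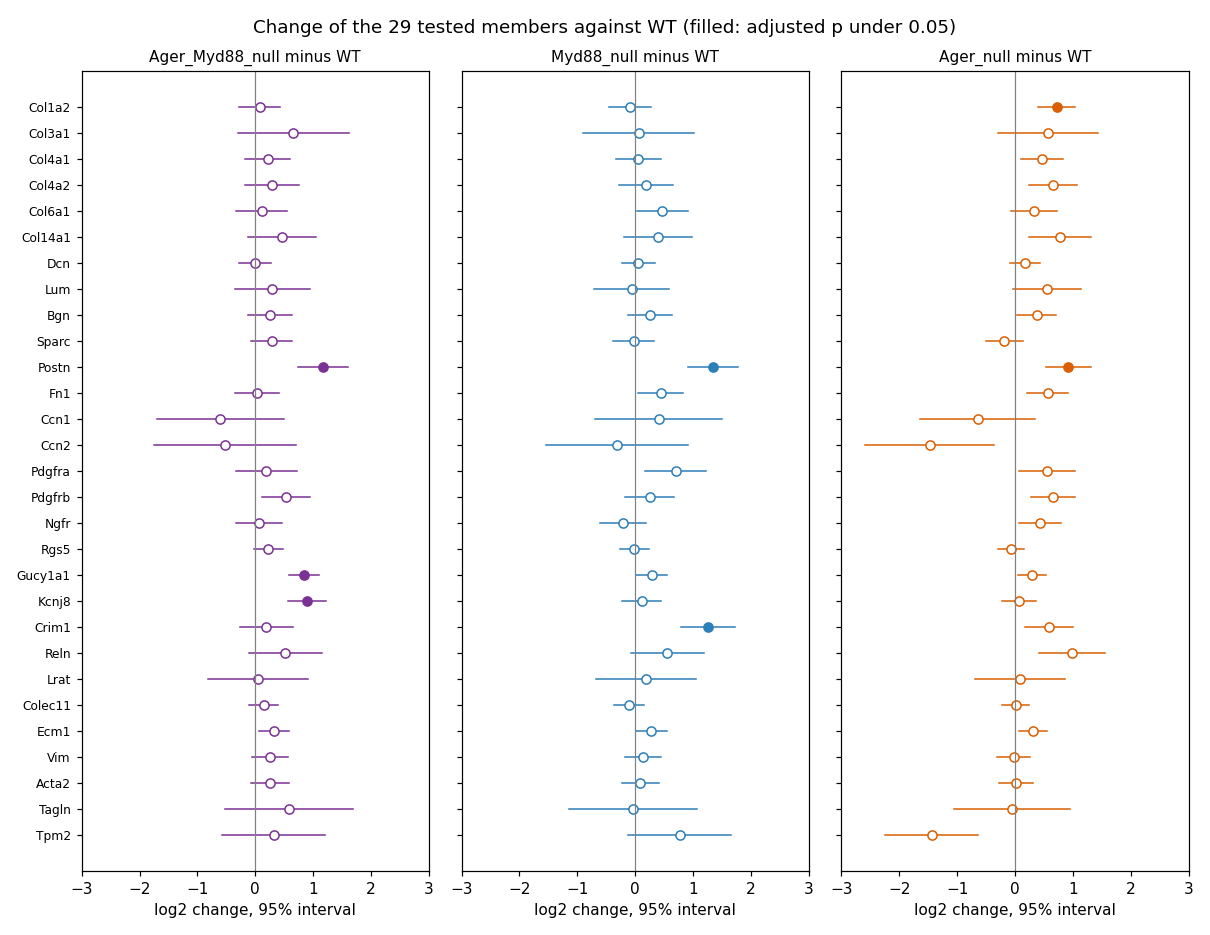
Each row is a tested member and each panel a deletion genotype against WT, with the log2 change on the horizontal axis, bars for the 95% interval and filled points for members that passed. Postn is filled in all 3 panels, and the Tpm2 and Ccn2 points of Ager_null lie farthest to the left, at -1.44 and -1.48.

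Between the double and the Myd88 deletion, which asks what Ager loss adds when Myd88 is gone, 0 of 29 members were called, against 0.153% of all genes. Arrays of these genotypes were fully separate for 5 members and 5.91% of all genes. At an unadjusted p under 0.05 there were 4, where 16.1% of all tested genes were, namely Crim1 (-1.07 ± 0.23, adjusted p = 0.070), Kcnj8, Gucy1a1 and Fn1. This comparison shares its Myd88_null arrays with Myd88_null against WT. Without Myd88_null 1, 4 members and 446 of all tested genes passed, in place of 0 and 13. The members were Crim1 (-1.21, adjusted p = 0.021), Kcnj8 (0.87, adjusted p = 0.022), Gucy1a1 (0.63, adjusted p = 0.027) and Fn1 (-0.64, adjusted p = 0.033).

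Related gene lists gave few calls. Of 13 tested matrix receptor genes 1 was called in Ager_Myd88_null against WT, Itga9, the alpha-9 integrin that binds tenascin and other matrix proteins, higher by 1.44 ± 0.16 (adjusted p = 5.8e-05). It was also higher in Myd88_null against WT (1.55 ± 0.16) and in Ager_Myd88_null against Ager_null (1.33 ± 0.15). Itga9 averaged 4.47 ± 0.39 in Ager_Myd88_null, 4.57 ± 0.18 in Myd88_null, 3.14 ± 0.17 in Ager_null and 3.03 ± 0.17 in WT livers, and lies on chromosome 9, as does Myd88. All Ager_null and WT arrays were under log2 4 (highest 3.35 and 3.28), so Itga9 entered the test through the groups in which it is high. With a floor at log2 4 the 3 differences were 0.47, 0.57 and 0.47, and none was called (adjusted p = 0.20, 0.060 and 0.057). Of 5 tested matrix glycoprotein and proteoglycan genes outside the members, Sparcl1, a relative of Sparc, rose with Myd88 loss averaged over both backgrounds (0.78 ± 0.17, adjusted p = 0.042), a call lost in 19 of 26 settings, 14 of them with a single array left out. All WT arrays were under log2 4 for Sparcl1 (highest 3.89). No gene of 5 further collagens, 12 genes of collagen maturation, 4 of the basement membrane, 15 of the TGF-beta and PDGF pathway, 10 SRF and YAP targets or 11 other stellate and pericyte markers was called by limma in any of the 7 comparisons, counting tested genes only. Of these 57 genes, 12 had an unadjusted p under 0.05 in Ager_Myd88_null against WT, where 8.57% of all tested genes did. These numbers were 14 and 19.6% in Myd88_null against WT, and 13 and 21.6% in Ager_null against WT. They were 13 and 22.7% in Ager_Myd88_null against Ager_null, and 9 and 16.1% in Ager_Myd88_null against Myd88_null. For averaged Myd88 loss they were 13 and 15.2%, and for the interaction 14 and 27.2%. In Ager_null against WT, 11 of the 12 collagen maturation genes were above 0 with a median of 0.26, among them Bmp1, the procollagen C-proteinase (0.48 ± 0.13, adjusted p = 0.065), and Serpinh1, the collagen chaperone (0.60 ± 0.22, adjusted p = 0.14). Over all genes that median was 0.02.

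Markers of other cells moved in part with the same contrasts, and their part in the results was not tested. Of 12 liver endothelial markers, 8 were above 0 in Ager_null against WT (median 0.21). Against WT, 10 were above 0 in Ager_Myd88_null (median 0.21) and 10 in Myd88_null livers (median 0.08). The list's mean deviations from the gene means were -0.53 to 0.44 on Ager_null and -0.33 to 0.01 on WT arrays. Of 12 Kupffer cell and macrophage markers 11 were below 0 in Myd88_null against WT (median -0.71) and 11 in Ager_null against WT (median -0.24). The mean deviation of the Kupffer list ran from -0.53 to 0.63 in Ager_null livers, overlapping the WT range of -0.32 to 0.68. In Myd88_null livers it was 0.19, -0.15, 0.01 and -1.86. The low array is Myd88_null 4, and without it the median change in Myd88_null against WT was -0.21. Of 12 portal fibroblast, smooth muscle and mesothelial markers 10 stayed under the filter, and of the rest Gas6, a ligand of TAM receptors, rose by 0.77 ± 0.18 in Ager_Myd88_null against Ager_null (adjusted p = 0.039), a call lost in 10 of 26 settings. Hepatocyte markers had a median change of 0.12 in Ager_null against WT (12 of 13 above 0). One gene each of the cholangiocyte, platelet and kidney lists was tested, and none was called.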

How the data were processed

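Each of 19 samples was 1 Affymetrix array of liver RNA, and groups and replicate numbers come from the sample titles. The values used are those the authors deposited, on the log2 scale, with 1 value for each probe set and array. They were made with GCRMA 2.16, per the submitters' processing notes. Labelling used a 3' IVT kit, per the labels' protocols. Of 45101 probe sets, 64 controls, 932 with several symbols and 9160 without a symbol were left out.

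Each of 18193 genes was read from its brightest probe set, and 8515 genes over log2 4 on at least 4 arrays were tested with limma (version 3.58.1, under R 4.3.3; lmFit and eBayes, 4 group means in 1 fit, 7 comparisons, two-sided, Benjamini-Hochberg). The procedure was run on simulated data with independent normal noise, of equal spread in all groups for a gene. Those data held no S ranges and no outlying array, so the run says nothing of how these affect the calls. Errors of changes are SEs and of levels SDs. Nothing in the labels says that samples came from pooled mice. The number of arrays limits the precision.

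Members, gene lists and the naming rule (all members, with called ones in full, and called or smallest-p genes of lists) were chosen with earlier results of these data known. Motifs and the member pairs were likewise chosen then. Alternatives were the filter, a floor, the mean of probe sets, 2 scalings, the S range or the replicate number as a block, and leaving out each array. Replicate numbers did not pair the arrays: over 25 pairs of equal number the correlation of deviations ran from -0.30 to 0.47, with 9 over 0.1.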

Additional observations from a re-analysis of the deposited data

Results flagged for a closer look

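In 144 checks of a member in a genotype, 13 arrays stood apart from the rest of their group by Dixon's criterion, where chance gives about 1 in 20. Myd88_null 4, the array with the lowest correlation to the others, was the low one for Col3a1 (5.84, the nearest other at 7.24), Acta2 (3.93, nearest 4.64) and Colec11 (10.75, nearest 10.95), and the high one for Lox (2.32), which was not tested. In the other Myd88_null arrays, Col6a1 was high on replicate 3 (5.07) and Dcn low on replicate 1 (11.15). In Ager_Myd88_null livers Col1a2 was low on replicate 2 (3.27), Col14a1 high on replicate 3 (8.27) and Lum low on replicate 1 (5.09). In Ager_null livers Col6a1 was low on replicate 2 (3.57) and Ccn1 on replicate 5 (5.03). In WT livers Lum was low on replicate 1 (4.37) and Gucy1a1 high on replicate 3 (5.61).

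The change of Crim1 with Myd88 loss differed between the Ager backgrounds in the interaction test (-1.66 ± 0.30, log2, SE, limma adjusted p = 0.026), and its second probe set did not follow the first.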

How the results depend on the processing

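No called change of a member changed sign under any setting, but the split of called genes into higher and lower did. With median centring it was 5 and 7 in Myd88_null against WT (27 and 7 as deposited), 62 and 93 in Ager_Myd88_null against Ager_null (136 and 72), 11 and 18 for averaged Myd88 loss (33 and 11), 50 and 41 in Ager_null against WT (71 and 36) and 69 and 120 for the interaction (49 and 156). With quantile normalization these splits were 4 and 7, 102 and 76, 12 and 12, 53 and 44, and 88 and 139. Median centring also turned the median over all genes below 0 in 5 comparisons where it had been above, and above 0 in the other 2. Of 370 member results under the settings other than leaving out an array, 339 kept their side of the threshold, 22 lost the call and 9 gained it, and of 1045 with an array left out these numbers were 956, 60 and 29. Postn in Myd88_null against WT and with Myd88 loss averaged over both backgrounds, and Gucy1a1 in Ager_Myd88_null against WT, kept their calls in every setting that gave a value. The cause of the shifts in counts below was not tested, beyond what each setting does to the number of genes or samples.

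With no filter, Ager_null against WT had 1 member and 43 genes called, Ager_Myd88_null against Ager_null 2 and 91, and the interaction 76 genes. With values under log2 4 set to 4, Ager_null against WT had 1 member. With the mean of probe sets, Ager_Myd88_null against Ager_null had 2 members and the interaction 3. With quantile normalization, Myd88_null against WT had 1 member and 11 genes, averaged Myd88 loss 1 and 24, and the interaction 3 members. With median centring, Myd88_null against WT had 12 genes and averaged Myd88 loss 1 member and 29 genes.

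With the S range as a block, Myd88_null against WT had 86 genes, Ager_null against WT 0 members and 59 genes, Ager_Myd88_null against Ager_null 0 and 120, Ager_Myd88_null against Myd88_null 5 genes, averaged Myd88 loss 300 genes, and the interaction 0 members and 0 genes. With the replicate block, Ager_Myd88_null against WT had 46 genes, Myd88_null against WT 1 member, Ager_Myd88_null against Ager_null 2 and 138, Ager_Myd88_null against Myd88_null 3 genes, averaged Myd88 loss 1 and 78, and the interaction 0 and 37. It lost the calls of Postn in Ager_null against WT (adjusted p = 0.057), of Crim1 in Myd88_null against WT (0.053) and in the interaction (0.050), of Tpm2 in Ager_Myd88_null against Ager_null (0.065), and of Gucy1a1 in that comparison (0.059) and in averaged Myd88 loss (0.063), and gained Col4a2 in Ager_null against WT (0.044). The numbers did not pair the arrays (median correlation 0.052), so this says nothing of the size of an effect.

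With 1 array left out, members and genes called ran from 2 to 3 and 18 to 34 in Ager_Myd88_null against WT, 1 to 5 and 10 to 987 in Myd88_null against WT, and 0 to 6 and 16 to 403 in Ager_null against WT. They ran from 0 to 5 and 18 to 368 in Ager_Myd88_null against Ager_null, 0 to 4 and 2 to 446 in Ager_Myd88_null against Myd88_null, 1 to 3 and 19 to 73 for averaged Myd88 loss, and 0 to 6 and 0 to 1739 for the interaction. The highest gene counts came without Myd88_null 1, except in Ager_Myd88_null against WT. Values near log2 4 have little signal over background, which limits Col1a2, Col6a1 and Ngfr and leaves 7 members untested.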
